A study of Mus musculus with 14 samples.

Results

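The 10 genes described here are the Fgf receptors Fgfr1, Fgfr2, Fgfr3 and Fgfr4 and 6 genes that report and restrain the Erk signal downstream of them, namely the Sprouty genes Spry1, Spry2 and Spry4, the Erk phosphatase gene Dusp6 and the Ets factor genes Etv4 and Etv5. They were taken by symbol from a list of pathway genes, out of 24054 genes in each table, and the list was drawn up with earlier results of these data known. All 10 passed the filter on low counts and were tested in every comparison. All are protein-coding genes, and their positions are those of RefSeq on GRCm38.p6 (the mm10 build that the files use).

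RNA was sequenced in 14 libraries of sorted mouse cells that fall into 6 groups. The d0con and d0ko groups (n = 2 libraries each) were undifferentiated embryonic stem cells (ESCs), grown for a day without LIF on red-fluorescent fibroblast feeders and sorted as Cherry-negative cells. The d3con and d3ko groups (n = 3 each) were sorted as Venus-positive cells after 3 days of endoderm differentiation on feeders that secrete Wnt3a, in medium with 12 ng/ml Activin A. The con cells carried the genotype Foxa2-Venus-KO/+ and the ko cells Foxa2-Venus-KO/Foxa2-Venus-KO, where a Venus cassette under the Foxa2 promoter stands in for the coding region of Foxa2, so the controls also lacked 1 copy of the gene and no wild-type cells were included. Per the naming of the deposited tables, replicates 1 and 3 of d3con came from the same clone as d0con replicate 1, and replicates 1 and 3 of d3ko from the same clone as d0ko replicate 1, so each genotype was represented by 2 clones. The d2-FVFn and d2-FVFp groups (n = 2 each) came from a different ESC line, in which doxycycline induces a Foxa2-Venus fusion. Those cells were given 40 ng/ml doxycycline for 48 hours in medium with LIF and serum and the sorter parted them by the presence of Venus, so both groups had received the drug.

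Fgf ligands bind receptor tyrosine kinases of the Fgfr family, which signal through adaptors such as Frs2 and Grb2 to Ras, Raf, Mek and Erk. Active Erk raises transcription of the Ets factors Etv4 and Etv5 and of its own inhibitors, since Sprouty proteins interfere with signalling between receptor and Raf and Dusp6 removes the activating phosphates of Erk. In mouse ESCs the ligand Fgf4 drives this pathway and favours exit from the naive state, and Fgf signalling is needed again when mesoderm and endoderm form at gastrulation.

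Levels are given in TPM, the abundance of a transcript relative to all transcripts of a library after correction for length. Library totals ranged from 14142788 to 27278237 expected counts. Foxa2 (chromosome 2, 148042877 to 148046969) was listed at 34.8 to 58.6 TPM in d3con, at 0.11 to 0.19 TPM in d3ko, at 2.01 to 2.99 TPM in d2-FVFn and at 160 to 169 TPM in d2-FVFp. The 8 endoderm markers summed to 41.6 to 226 TPM in d3ko and to 908 to 1493 TPM in d3con, and 7 of the 8 were lower in all d3ko libraries than in any d3con library. The 8 pluripotency markers summed to 14726 to 16752 TPM at day 0, to 873, 2047 and 944 TPM in d3con replicates 1, 2 and 3, and to 16106, 4465 and 18809 TPM in d3ko replicates 1, 2 and 3. Replicate 2, the second clone, therefore stood apart from the other day 3 libraries in each genotype, and it also had the highest mesoderm marker sums (180 TPM in d3con, 351 TPM in d3ko). Fibroblast markers, which the feeder cells express, are given beside Fgfr1. By their effective lengths, the first replicates of both day 3 groups rest on reads of 75 bases and the other libraries on reads of 50 bases. In bulk libraries such as these, fewer cells of a type and less RNA per cell cannot be told apart.

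**Figure D1:**
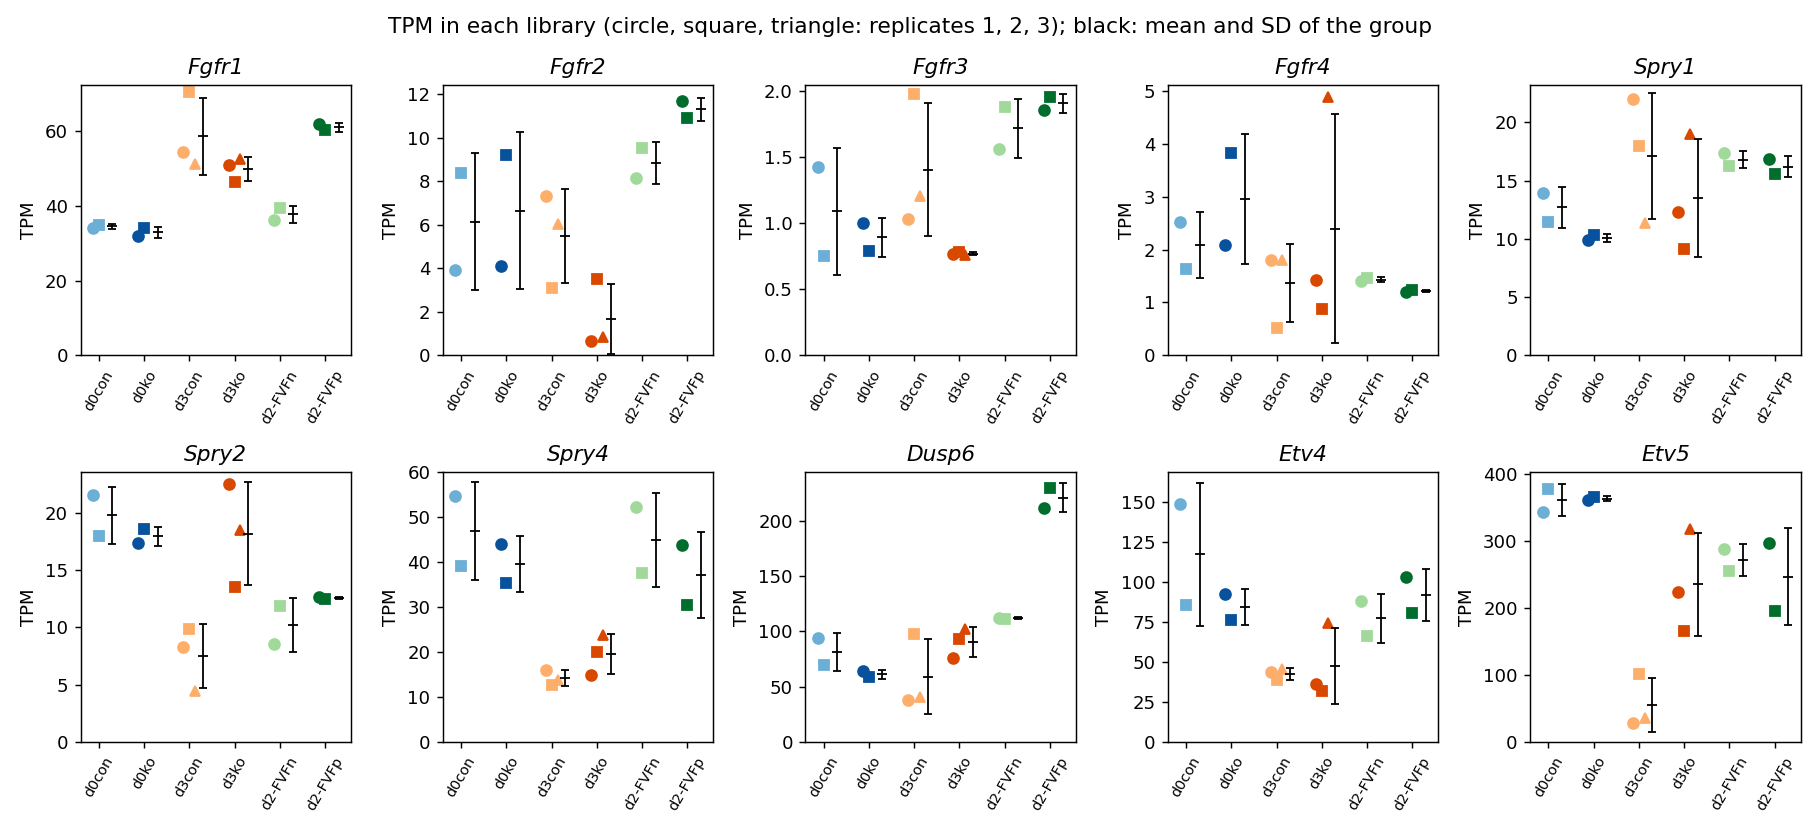
TPM (vertical axis from 0, a scale of its own in each panel) of the 10 genes in each of the 14 libraries, by group on the horizontal axis, with circles, squares and triangles for replicates 1, 2 and 3 and the group mean with its SD in black. Etv5 lies between 344 and 379 TPM at day 0 and between 28.7 and 102 TPM in d3con, with d3ko at 166 to 319 TPM.

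Among the receptors, Fgfr1 supplied most of the transcripts in every library. Fgfr1 (chromosome 8, 25518759 to 25575718), the main Fgf receptor of ESCs and early mesoderm, stood at 34.0 and 35.0 TPM in d0con, 31.8 and 33.9 TPM in d0ko, 54.5, 70.4 and 51.1 TPM in d3con, 51.0, 46.3 and 52.4 TPM in d3ko, 36.1 and 39.4 TPM in d2-FVFn and 61.9 and 60.2 TPM in d2-FVFp. All day 3 libraries lay above all day 0 libraries, and both d2-FVFp libraries lay above both d2-FVFn libraries. Fgfr1 rose from d0con to d3con by 0.56 on the log2 scale (SE 0.16, adjusted p = 0.0148, edgeR), a 1.48-fold change that stayed below the 2-fold condition for a call. The adjusted p was 0.0935 without d0con replicate 1 and 0.073 without d0con replicate 2. At an adjusted p under 0.05 and with no condition on size, 27% of all genes tested rose in that comparison. From d0ko to d3ko the log2 fold change was 0.44 (SE 0.16, adjusted p = 0.0607), and between d3ko and d3con it was -0.24 (SE 0.14, adjusted p = 0.306). The summed fibroblast markers were 11.8 to 135 TPM at day 0 and 52.7 to 366 TPM at day 3, and these ranges overlapped, unlike those of Fgfr1. In d3con replicates 1, 2 and 3 the sums were 304, 52.7 and 216 TPM, so the lowest sum stood beside the highest Fgfr1. In d3ko replicates 1, 2 and 3 they were 288, 117 and 366 TPM, in the order of Fgfr1. The part of feeder cells in the result was not tested.

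Fgfr2 was second by level among the receptors in most libraries and varied most between libraries. Fgfr2 (chromosome 7, 130162451 to 130266808), whose isoforms mediate signalling between epithelium and mesenchyme, stood at 3.90 and 8.35 TPM in d0con, 4.10 and 9.19 TPM in d0ko, 7.31, 3.09 and 6.04 TPM in d3con, 0.65, 3.51 and 0.86 TPM in d3ko, 8.15 and 9.52 TPM in d2-FVFn and 11.7 and 10.9 TPM in d2-FVFp. In d3ko all libraries lay below both d0ko libraries, and replicates 1 and 3, the same clone, lay far below replicate 2. The fall from d0ko to d3ko was called (log2 fold change -2.15, SE 0.71, adjusted p = 0.0479), while d3ko and d3con overlapped and their difference was not called by edgeR (log2 fold change -1.73, SE 0.66, adjusted p = 0.127) but was by DESeq2 (-1.72, adjusted p = 0.04). The call of d3ko over d0ko was lost when any of d0ko replicates 1 and 2 or d3ko replicates 1 and 3 was left out (adjusted p from 0.0928 to 0.274) and in the fit that blocks on replicate number (log2 fold change -2.11, adjusted p = 0.0563). With the clone as a block the call of d3ko over d0ko was kept (log2 fold change -2.145, adjusted p = 0.0182). Without d3ko replicate 2 the difference between d3ko and d3con was -2.83 on the log2 scale and was called (adjusted p = 0.00771). The d3ko libraries left in that fit were of the same clone.

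Fgfr3 and Fgfr4 were expressed near the limit of the assay. Fgfr3 (chromosome 5, 33721724 to 33737068) had 28 to 86 expected counts a library, at 1.43 and 0.75 TPM in d0con, 1.0 and 0.79 TPM in d0ko, 1.03, 1.98 and 1.21 TPM in d3con, 0.77, 0.78 and 0.76 TPM in d3ko, 1.56 and 1.88 TPM in d2-FVFn and 1.86 and 1.96 TPM in d2-FVFp. The d3ko libraries lay below all d3con libraries, but the difference was not called (log2 fold change -0.87, SE 0.39, adjusted p = 0.186). Fgfr4 (chromosome 13, 55152818 to 55168759), which serves as a receptor for Fgf15 in the adult liver, ranged from 0.52 to 4.88 TPM over all libraries, both extremes at day 3, and the 3 d3ko libraries alone spanned 0.88 to 4.88 TPM. No comparison of Fgfr3 or Fgfr4 passed the threshold, and the 95% interval of the log2 fold change of Fgfr4 in d3ko over d3con ran from -0.76 to 2.35, so changes of several fold could not be detected at this depth and spread.

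As a share of the summed TPM of the 4 receptors, Fgfr1 made up 71.1% to 81.6% at day 0, 84.3% to 92.6% in d3con, 89.0% to 94.7% in d3ko, 75.4% to 76.5% in d2-FVFn and 80.8% to 81.0% in d2-FVFp. The share of Fgfr2 was 9.3% to 19.3% at day 0, 4.1% to 11.3% in d3con and 1.2% to 6.8% in d3ko. The summed receptor TPM was 39.0 to 47.7 at day 0, 60.1 to 76.0 in d3con, 51.5 to 58.9 in d3ko, 47.3 and 52.2 in d2-FVFn and 74.3 and 76.6 in d2-FVFp.

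**Figure D2:**
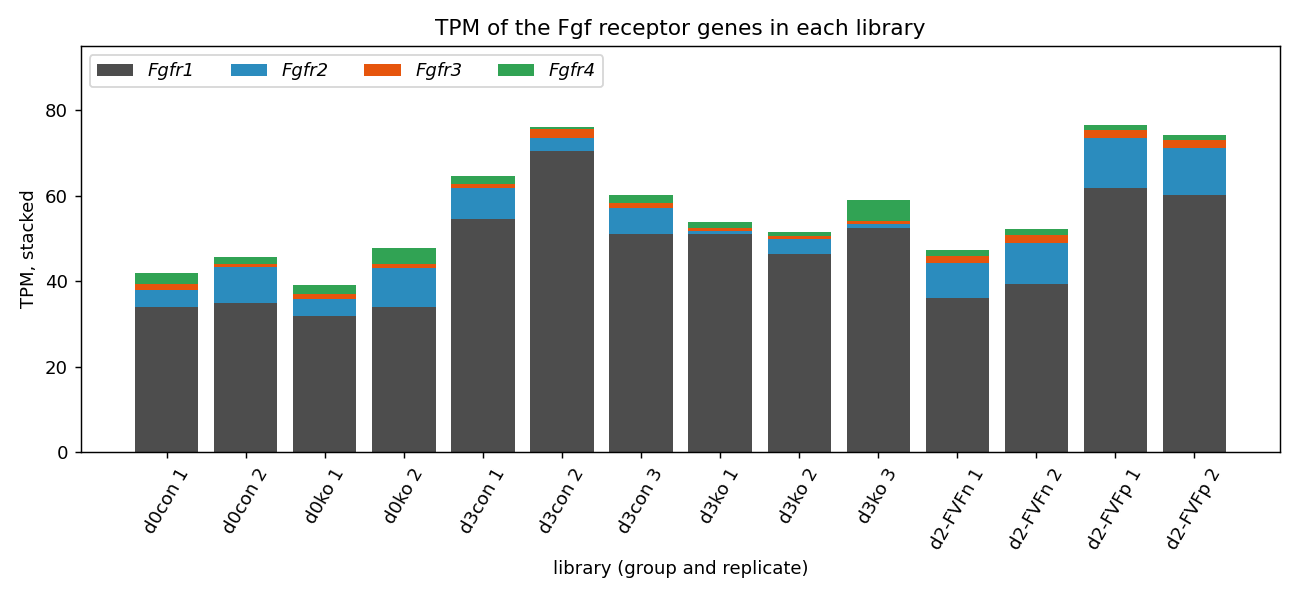
Stacked TPM (vertical axis) of Fgfr1, Fgfr2, Fgfr3 and Fgfr4 in each library (horizontal axis, group and replicate). Fgfr1 fills 71.1% or more of every bar, and the Fgfr2 segment is thinnest in d3ko replicates 1 and 3, at 0.65 and 0.86 TPM.

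Of the Sprouty genes, Spry1 was not called in any comparison, while Spry2 and Spry4 were. Spry1 (chromosome 3, 37639947 to 37644599), an inhibitor of receptor tyrosine kinase signalling best known from kidney development, stood at 13.9 and 11.5 TPM in d0con, 9.86 and 10.3 TPM in d0ko, 22.0, 18.0 and 11.4 TPM in d3con, 12.3, 9.16 and 19.0 TPM in d3ko, 17.3 and 16.3 TPM in d2-FVFn and 16.9 and 15.6 TPM in d2-FVFp. Day 3 overlapped day 0 in each genotype, the genotypes overlapped at day 3, and the adjusted p of its 6 comparisons ran from 0.516 to 1.

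Spry2 fell in the controls and stood higher in d3ko than in d3con. Spry2 (chromosome 14, 105891947 to 105896819), which blocks Ras activation below Fgf receptors, stood at 21.5 and 18.0 TPM in d0con, 17.3 and 18.5 TPM in d0ko, 8.33, 9.83 and 4.44 TPM in d3con, 22.5, 13.5 and 18.5 TPM in d3ko, 8.56 and 11.8 TPM in d2-FVFn and 12.7 and 12.5 TPM in d2-FVFp. All d3con libraries lay below all day 0 libraries, and the d3ko libraries lay on both sides of the d0ko pair and above all d3con libraries. The fall from d0con to d3con was called (log2 fold change -1.59, SE 0.35, adjusted p = 0.00494), and so was the difference of d3ko over d3con (1.26, SE 0.32, adjusted p = 0.0367). The call of d3ko over d3con was lost without replicate 1 or 3 of either group (adjusted p from 0.0889 to 0.108). It was also lost with libraries of the same clone summed (adjusted p = 0.143). From d0ko to d3ko the log2 fold change was -0.15 (SE 0.35, adjusted p = 0.775), with a 95% interval from -0.92 to 0.63.

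Spry4 fell in both genotypes. Spry4 (chromosome 18, 38586247 to 38601347), another Erk-induced inhibitor, stood at 54.7 and 39.2 TPM in d0con, 44.0 and 35.3 TPM in d0ko, 16.1, 12.6 and 13.9 TPM in d3con, 14.9, 20.1 and 23.7 TPM in d3ko, 52.3 and 37.6 TPM in d2-FVFn and 43.9 and 30.4 TPM in d2-FVFp. Every day 3 library lay below every day 0 library, while the genotypes overlapped at day 3. The fall was called in d3con (log2 fold change -1.92, SE 0.24, adjusted p = 0.000425) and in d3ko (-1.19, SE 0.23, adjusted p = 0.00713), and the difference between d3ko and d3con was not (0.45, SE 0.21, adjusted p = 0.207). In d3ko the call was lost without d0ko replicate 1 (log2 fold change -1.001, adjusted p = 0.078).

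No comparison of day or genotype was called for Dusp6. Dusp6 (chromosome 10, 99263231 to 99267489), the cytoplasmic phosphatase that acts on Erk, stood at 93.9 and 69.3 TPM in d0con, 64.1 and 58.5 TPM in d0ko, 37.7, 97.9 and 41.1 TPM in d3con, 75.7, 93.0 and 103 TPM in d3ko, 112 and 111 TPM in d2-FVFn and 211 and 230 TPM in d2-FVFp. In d3con replicates 1 and 3, the same clone, lay below day 0 and replicate 2 above it, whereas all d3ko libraries lay above both d0ko libraries. The log2 fold changes were -0.68 in d3con over d0con (SE 0.36, adjusted p = 0.135), 0.39 in d3ko over d0ko (SE 0.37, adjusted p = 0.44) and 0.62 in d3ko over d3con (SE 0.32, adjusted p = 0.247). A single library decided this, since without d3con replicate 2 the fall in the controls (-1.24, adjusted p = 0.00189) and the difference of d3ko over d3con (1.18, adjusted p = 0.00866) were both called. The d3con libraries left in that fit were of the same clone, so their spread is that within a clone.

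The Ets factor genes fell in the controls. Etv4 (chromosome 11, 101769747 to 101785310), a transcriptional activator of the Pea3 subfamily, stood at 149 and 85.6 TPM in d0con, 92.4 and 76.5 TPM in d0ko, 43.5, 38.6 and 45.6 TPM in d3con, 36.2, 31.8 and 74.5 TPM in d3ko, 88.0 and 66.4 TPM in d2-FVFn and 103 and 80.4 TPM in d2-FVFp. All day 3 libraries lay below all day 0 libraries, and d3ko spanned the whole range of d3con. The fall was called in d3con (log2 fold change -1.66, SE 0.36, adjusted p = 0.00463) but not in d3ko (-0.998, SE 0.36, adjusted p = 0.0607), and the genotypes did not differ detectably at day 3 (0.15, SE 0.32, adjusted p = 0.798, 95% interval from -0.57 to 0.88). In d3con the call was lost without d0con replicate 1 (log2 fold change -1.22, adjusted p = 0.0537). In d3ko the fall was called with the replicate number as a block (-1.28, adjusted p = 0.0166), with the clone as a block (-1.14, adjusted p = 0.027) and without d3ko replicate 3 (-1.48, adjusted p = 0.00465), and by DESeq2 (-1.02, adjusted p = 0.0211).

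Etv5 was the member with the highest level at day 0 and with the largest change. Etv5 (chromosome 16, 22381313 to 22439570), a second Pea3 factor, stood at 344 and 379 TPM in d0con, 361 and 366 TPM in d0ko, 28.7, 102 and 35.8 TPM in d3con, 224, 166 and 319 TPM in d3ko, 289 and 255 TPM in d2-FVFn and 298 and 196 TPM in d2-FVFp. The groups did not overlap in any comparison of day or of genotype at day 3: every d3con library lay below every d3ko library, and every d3ko library below every day 0 library. The mean level of d3con was 15.3% of that of d0con, and the mean level of d3ko was 64.9% of that of d0ko. The fall in the controls was called (log2 fold change -2.92, SE 0.48, adjusted p = 0.00129), the fall in d3ko was not (-0.79, SE 0.46, adjusted p = 0.223), and d3ko stood 4.30-fold above d3con (log2 fold change 2.11, SE 0.44, adjusted p = 0.0209). The call of d3ko over d3con was lost without replicate 1 or 3 of either group (adjusted p from 0.0568 to 0.0868). It was also lost with libraries of the same clone summed (adjusted p = 0.152). Within replicate 2, the second clone of each genotype, d3ko and d3con were at 166 and 102 TPM.

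The promoters of Etv5, Spry2 and Dusp6 are shown because the first 2 genes differed between the genotypes at day 3 and the last had the highest mean level of its 6 groups in d2-FVFp. Fgfr1, Fgfr2 and Fgfr3 also had their highest mean there and are not shown. Each run is the 250 bases before the start site, 5′ to 3′ on the strand of the gene, from RefSeq on GRCm38.p6, and capitals mark a Fox family motif.
Etv5, chr16:22439571-22439820, minus strand: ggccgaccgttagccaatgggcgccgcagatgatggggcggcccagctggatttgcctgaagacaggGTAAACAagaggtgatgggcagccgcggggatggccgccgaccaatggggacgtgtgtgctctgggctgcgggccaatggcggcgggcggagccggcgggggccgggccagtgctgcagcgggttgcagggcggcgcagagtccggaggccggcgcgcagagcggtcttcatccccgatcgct
Spry2, chr14:105896820-105897069, minus strand: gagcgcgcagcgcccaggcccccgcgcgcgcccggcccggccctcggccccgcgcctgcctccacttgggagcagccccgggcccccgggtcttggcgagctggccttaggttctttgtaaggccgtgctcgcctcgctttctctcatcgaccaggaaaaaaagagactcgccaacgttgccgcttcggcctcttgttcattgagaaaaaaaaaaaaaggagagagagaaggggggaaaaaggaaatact
Dusp6, chr10:99262981-99263230, plus strand: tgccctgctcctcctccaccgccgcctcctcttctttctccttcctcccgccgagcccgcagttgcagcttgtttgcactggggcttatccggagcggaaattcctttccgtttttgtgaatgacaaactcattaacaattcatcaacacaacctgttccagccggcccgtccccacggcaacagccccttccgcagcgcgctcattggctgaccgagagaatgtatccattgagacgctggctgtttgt

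The Fox motif searched was TGTTTAC and the Ets motif CCGGAAGT, each on both strands, in the 300 bases from 250 before to 50 after a start site. RefSeq promoters were searched for 7 of the 10 genes, 9 promoters in all since Fgfr3 and Etv5 had 2 each. The search of the members left out chromosome 18, where Spry4 lies, and the count over all promoters did not. The Ets motif was in 0 of the 9 and the Fox motif in 1, the upstream promoter of Etv5, where it lies on the reverse strand and starts at position -183 from the start site. Of 32851 mouse promoters of this length, 3.89% held the Ets motif and 3.65% the Fox motif. A match of letters is a description of the sequence, and binding was not measured in these libraries.

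**Figure D3:**
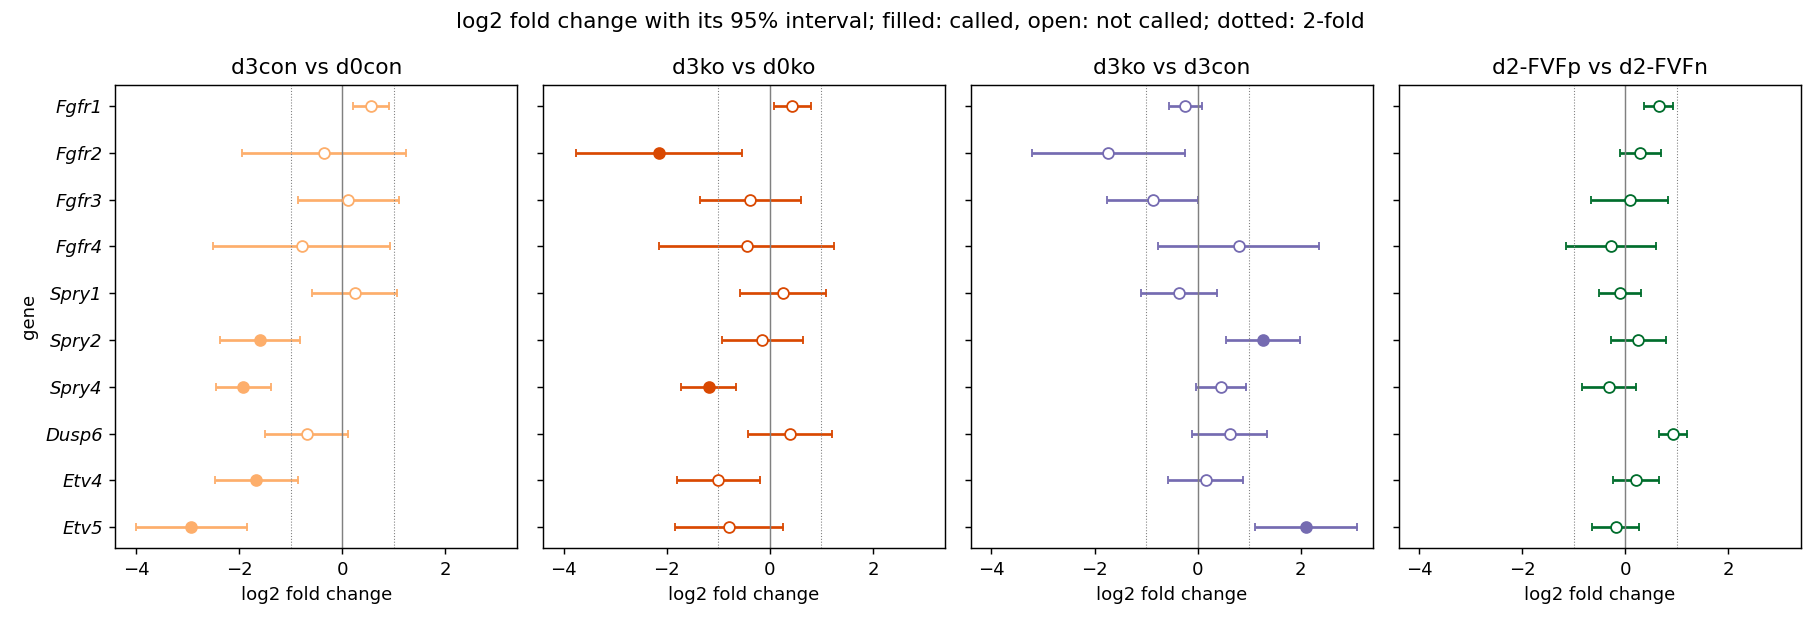
log2 fold change (horizontal axis) of each gene (vertical axis) in 4 comparisons with its 95% interval, filled where called and open where not, with dotted lines at a 2-fold change. In d3con over d0con 4 points are filled and all lie to the left, while in d3ko over d3con the filled points are Spry2 and Etv5, both to the right.

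Counted over the 10 genes, d3con over d0con had 4 called lower (Spry2, Spry4, Etv4 and Etv5) and 0 called higher, where 14.6% of the 13899 genes tested were called lower and 20.6% higher. Their median log2 fold change was -0.74, against 0.07 over all genes tested. d3ko over d0ko had 2 called lower (Fgfr2 and Spry4) and 0 called higher, against 5.72% and 11.6% of all genes, with a median of -0.42 against 0.07. The 4 members lower in d3con are all feedback genes or Ets factors, and no receptor was called in the controls. The count in d3con was between 3 and 5 with each library left out in turn, 3 without d0con replicate 1, where Etv4 was lost, and 5 without d3con replicate 2, where Dusp6 was gained, and the count in d3ko was 0 without d0ko replicate 1 and 1 without d0ko replicate 2 or d3ko replicate 1.

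In d3ko over d3con 2 members were called higher (Spry2 and Etv5) and 0 lower, where 4.75% of all genes were called higher and 3.51% lower. DESeq2 called 3, the same 2 genes higher and Fgfr2 lower, and 12.1% of all genes in either direction. The median log2 fold change was 0.30 over the members and 0.02 over all genes tested. This comparison shares the d3con libraries with d3con over d0con, so the values of Spry2 and Etv5 in d3con enter both. Both calls were lost when d3con replicate 1 or 3 or d3ko replicate 1 or 3 was left out, with the direction kept (adjusted p from 0.0568 to 0.0868 for Etv5 and from 0.0889 to 0.108 for Spry2), and between 0.579% and 3.76% of all genes were called in those fits. They were also lost with the libraries of the same clone summed, which leaves 2 libraries a group (adjusted p = 0.152 for Etv5 and 0.143 for Spry2), where 1 of 13666 genes was called at all. Without replicate 2 of both genotypes 4 members were called, namely Etv5 (log2 fold change 3.07), Spry2 (1.66) and Dusp6 (1.17) higher and Fgfr2 (-3.12) lower, and 18.8% of all genes were called in that fit. This alternative was chosen after seeing the data. It leaves only libraries of the same clone in each day 3 group, so the spread at day 3 is that within a clone.

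Whether the change over 3 days differed between the genotypes was tested by the interaction of genotype and day. No member was called, nor was any other gene (0% of 13899), while 2 members, Etv5 and Spry2, and 13.2% of all genes had an unadjusted p under 0.05. The interaction of Etv5 was 2.14 on the log2 scale (SE 0.67, adjusted p = 0.235), that of Spry2 1.44 (SE 0.50, adjusted p = 0.263), that of Dusp6 1.07 (SE 0.51, adjusted p = 0.411) and that of Fgfr2 -1.80 (SE 1.02, adjusted p = 0.49). DESeq2 called Etv5 alone among the members (log2 interaction 2.15, adjusted p = 0.0287), and 4.08% of all genes. By edgeR's test a difference between the genotypes in the change over 3 days was therefore not shown for any member. The deleted gene Foxa2 was not called by it either (log2 interaction -7.68, SE 0.87, adjusted p = 0.0544). A missing call thus does not show that a member changed alike in both genotypes.

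The level of Etv5 in the day 3 libraries followed the order of the pluripotency marker sums. In d3con replicates 1, 3 and 2, with summed pluripotency TPM of 873, 944 and 2047, Etv5 was at 28.7, 35.8 and 102 TPM. In d3ko replicates 2, 1 and 3, with sums of 4465, 16106 and 18809, it was at 166, 224 and 319 TPM. Dppa5a alone supplied 1867 to 15543 TPM of those d3ko sums, and 6 of the 8 pluripotency markers, none of them at 0, were higher in all d3ko libraries than in any d3con library. Spry2 was higher in d3ko than in d3con but did not follow the sums within a group. In d3ko replicates 1 and 3, Spry4 was at 14.9 and 23.7 TPM, Etv4 at 36.2 and 74.5 TPM and Etv5 at 224 and 319 TPM. Each of these genes was there below all day 0 libraries. The marker sums of those 2 libraries lay within or above the day 0 range, but Pou5f1 (501 to 944 TPM in d3ko, 1335 to 1467 TPM at day 0) and Zfp42 (40.1 to 400.1 TPM, and 482 to 575 TPM at day 0) were below all day 0 libraries in every d3ko library. The part of remaining pluripotent cells in these results was not tested.

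**Figure D4:**
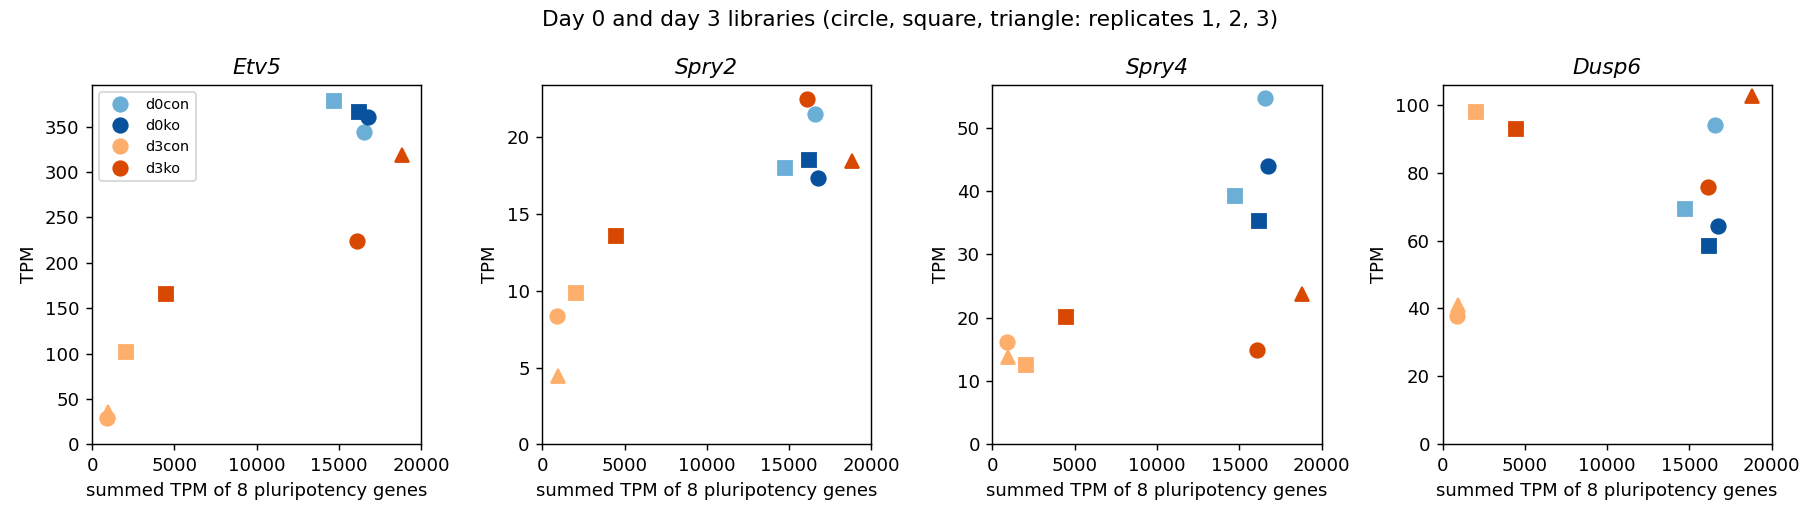
TPM of Etv5, Spry2, Spry4 and Dusp6 (vertical axes from 0) against the summed TPM of 8 pluripotency marker genes (horizontal axes) in the 10 day 0 and day 3 libraries, coloured by group, with circles, squares and triangles for replicates 1, 2 and 3. Etv5 is lowest in the d3con libraries at the left (28.7 to 102 TPM), and Spry4 is at 14.9 and 23.7 TPM in d3ko replicates 1 and 3 at the right of the panel.

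Before differentiation no member was called between the genotypes, with 2 libraries a group. In d0ko over d0con 0 members were called (adjusted p = 1 for each), as were 0% of all genes, and 0 members had an unadjusted p under 0.05, which 195 genes (1.4%) had. DESeq2 also called 0 members. The log2 fold changes ran from -0.51 for Etv4 to 0.46 for Fgfr4. The 95% interval ran from -1.34 to 0.44 for Dusp6 (log2 fold change -0.45) and from -1.28 to 0.53 for Spry1 (-0.38). Changes of over 2-fold in Dusp6 and Spry1 lie within these intervals. For Fgfr1 (-0.11) the interval ran from -0.49 to 0.27.

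Forced Foxa2 expression in ESCs went with a higher level of Dusp6 and Fgfr1. In d2-FVFp over d2-FVFn, Dusp6 stood at 1.91-fold (log2 fold change 0.93, SE 0.12, adjusted p = 0.00384) and Fgfr1 at 1.56-fold (0.64, SE 0.12, adjusted p = 0.0158), both below the 2-fold condition, so 0 members were called where 6.96% of 12943 genes were called higher and 1.47% lower. With no condition on size these 2 members rose, against 9.96% of all genes tested. DESeq2 also called 0 members, and without d2-FVFp replicate 1 Dusp6 passed the 2-fold condition (log2 fold change 1.01, adjusted p = 0.00132). The rise of Fgfr1 had an adjusted p of 0.135 without d2-FVFn replicate 1 and of 0.0884 without d2-FVFn replicate 2. Etv5 (log2 fold change -0.19, SE 0.19, adjusted p = 0.534), Spry2 (0.25, SE 0.23, adjusted p = 0.477) and Spry4 (-0.32, SE 0.23, adjusted p = 0.355) were not called, with 95% intervals from -0.64 to 0.27, from -0.28 to 0.79 and from -0.85 to 0.21. Their pluripotency marker sums were 7123 to 8678 TPM in d2-FVFn and 4709 to 6222 TPM in d2-FVFp, and fibroblast markers stayed at 2.73 to 3.95 TPM.

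The groups were ordered by mean level, and the range of each was set against that of the next. Etv5 ran from d0ko and d0con, whose ranges overlapped, through d2-FVFn, d2-FVFp and d3ko, of which each overlapped the next, down to d3con, which stood clear of d3ko. Dusp6 ran from d2-FVFp (221 ± 13.2 TPM, SD, n = 2) and d2-FVFn (112 ± 0.91 TPM), each clear of the next, to d3ko (90.4 ± 13.6 TPM, n = 3), d0con (81.6 ± 17.4 TPM, n = 2), d0ko (61.3 ± 3.96 TPM) and d3con (58.9 ± 33.8 TPM, n = 3), of which d3ko overlapped d0con and d0ko overlapped d3con. The d3con range of Dusp6, 37.7 to 97.9 TPM, also overlapped those of d3ko and d0con. Fgfr1 was highest in d2-FVFp, d3con and d3ko, which overlapped in that order, and d3ko stood clear of d2-FVFn, which stood clear of both day 0 groups.

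Likeness over the 14 libraries is described here by Pearson's r of log2(TPM + 1), where libraries of a group share their condition and some share a clone or a read length. Of 45 pairs of members 6 had r over 0.5, and the highest was that of Spry4 and Etv4 (0.895), followed by Spry2 and Etv5 (0.772) and Spry4 and Etv5 (0.742). The lowest was that of Fgfr1 and Spry4 (-0.666). Among 12935 genes with a mean of at least 1 TPM, the gene most like Etv5 was the pluripotency factor gene Pou5f1 (r = 0.973), followed by the kinase gene Sik1 (0.97), and the gene most like Spry2 was Smad7 (0.934), an inhibitor of Tgf-beta and Activin signalling. Spry4 was most like Zfp532 (0.973) and Dtymk (0.964), Etv4 like Twf2 (0.964) and Mfsd5 (0.963), Fgfr1 like Maff (0.957) and Flot2 (0.948), and Dusp6 like Prkar2a (0.951), a regulatory subunit of protein kinase A, and Rundc3b (0.923). Fgfr2 was most like Map3k7 (0.924) and Plcxd1 (0.921), Fgfr3 like Tekt2 (0.926) and Cmpk2 (0.901), Fgfr4 like Ltc4s (0.886) and Tmem116 (0.823), Spry2 also like Tceb2 (0.916), and Spry1 like Slc25a33 (0.79) and C1galt1 (0.767).

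Of 18 Fgf ligand genes 9 were tested, and in d3con over d0con 4 were called higher and 4 lower, where 20.6% and 14.6% of all genes were. Some, such as Fgf8 with 3 to 7 counts at d0con, passed the filter on low counts only through the group where they are high. Fgf8 and Fgf5, ligands of the primitive streak and the epiblast, rose from 0.27 to 0.70 TPM and from 2.10 to 4.78 TPM at d0con to 501 to 702 TPM and 403 to 485 TPM at d3con, and Fgf10 rose from 0.32 to 0.51 TPM to 50.2 to 113 TPM. Fgf4, the main ligand of ESCs, fell from 74.9 to 81.6 TPM to 2.01 to 2.22 TPM (log2 fold change -5.40), and Fgf17 (-4.31) and Fgf18, the latter from 1.03 to 2.25 TPM to 0 to 0.17 TPM, fell too. In d3ko over d0ko 4 ligands were called higher, with Fgf8 at 67.1 to 466 TPM, Fgf10 (log2 fold change 5.28) and Fgf5 (4.55), and 1 lower, Fgf18 (-2.23). Of all genes 11.6% were called higher and 5.72% lower there. The call of Fgf18 was lost with the replicate number as a block and without d0ko replicate 2 or any d3ko replicate (adjusted p from 0.072 to 0.148), that of Fgf5 without d0ko replicate 1 (adjusted p = 0.0901) or 2 (0.102), and that of Fgf10 without d0ko replicate 1 (0.0505). Fgf4 was the 1 ligand called in d3ko over d3con, where 4.75% of all genes were called higher and 3.51% lower. It was higher by 5.01 on the log2 scale (SE 0.74, adjusted p = 0.0107), with 10.8 to 124 TPM in d3ko. Its call was lost without d3con replicate 3 (log2 fold change 4.99, adjusted p = 0.0616).

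**Figure D5:**
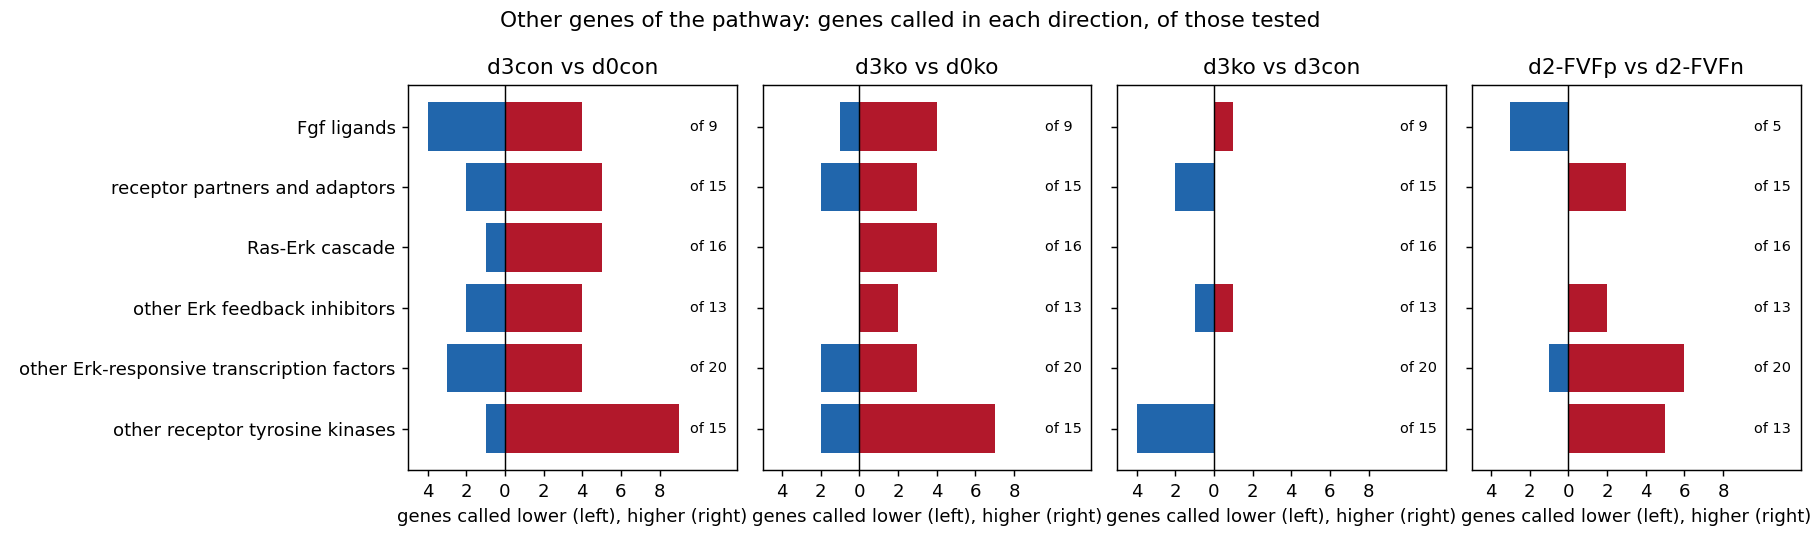
Number of genes called higher (bars to the right of 0) and lower (bars to the left) in 6 lists of other pathway genes, in 4 comparisons, with the number tested in each list at the right edge. The list of other receptor tyrosine kinases has 9 of 15 called higher in d3con over d0con and 4 of 15 called lower in d3ko over d3con. Over all genes tested 20.6% were called higher in d3con over d0con and 3.51% lower in d3ko over d3con. Among the 9 are Flt1, Kdr and Pdgfra, with 9 to 16 counts at d0con. Among the 4 is Ntrk2, with 2 to 6 counts in d3ko, which only d3con took past the filter.

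Among receptor partners and adaptors and in the Ras-Erk cascade, the calls in d3con are to be read against 20.6% of all genes called higher and 14.6% lower. The shares of all genes were 11.6% and 5.72% in d3ko over d0ko, and 4.75% and 3.51% in d3ko over d3con. Of 15 partners and adaptors tested 5 were called higher in d3con, led by the glypican genes Gpc3 (log2 fold change 5.98) and Gpc4 (3.31) and Flrt3 (3.51), a membrane protein that binds Fgf receptors, and 2 lower, the adaptor gene Gab1 (-3.03) and the syndecan gene Sdc4 (-1.19). The ko cells had 3 called higher over the same days, Gpc3 (4.18), Sos2 (2.02) and the decoy receptor gene Fgfrl1 (1.74), and 2 lower, Gab1 (-1.60) and Sdc4 (-1.05), and the last call was lost with the replicate number as a block. d3ko stood below d3con in 2, Gpc4 (-2.34, adjusted p = 0.0242) and Fgfrl1 (-1.42, adjusted p = 0.0173). Of 16 cascade genes 5 were called higher in d3con, led by the Erk-activated kinase genes Rps6ka2 (2.46) and Rps6ka3 (1.62) and by Braf (1.45), and 1 lower, the scaffold gene Ksr1 (-1.62), so that the share called in either direction was close to that of all genes. Over the same days 4 were called higher in d3ko, again led by Rps6ka2 (1.80), Braf (1.36) and Rps6ka3 (1.35), and 0 cascade genes were called between d3ko and d3con, where DESeq2 also called 0 and 2 had an unadjusted p under 0.05. The calls of Sos2, Gab1, Sdc4, Rps6ka3 and Braf in d3ko over d0ko were lost without either d0ko replicate (adjusted p from 0.0501 to 0.189), that of Fgfrl1 without d0ko replicate 1 (0.0717), and those of Gab1 and Sdc4 also without d3ko replicate 1 (0.0807 and 0.0642), while Sdc4 fell below the 2-fold condition without d3ko replicate 2 (log2 fold change -0.74). In d3con over d0con the call of Sdc4 was lost without d0con replicate 2 (0.0913) and that of Ksr1 without either d0con replicate or d3con replicate 1 or 3 (from 0.0533 to 0.0916). The calls of Gpc4 and Fgfrl1 in d3ko over d3con were lost without replicate 1 or 3 of either group (from 0.0536 to 0.0916).

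Other feedback inhibitors and other Erk-responsive factors had genes called in both directions in d3con, where 20.6% of all genes were called higher and 14.6% lower. The shares of all genes were 11.6% and 5.72% in d3ko over d0ko, and 4.75% and 3.51% in d3ko over d3con. Of 13 other feedback inhibitors tested 4 were called higher in d3con, led by Lrig1 (log2 fold change 2.66), Dusp4 (2.36), a nuclear Erk phosphatase, and Spred3 (1.83), and 2 lower, the phosphatase genes Dusp5 (-2.25) and Dusp1 (-1.83). Over these days in the ko cells, Lrig1 (1.42) and Rasa3 (1.13) were called higher. Between d3ko and d3con Dusp1 was higher (2.27, adjusted p = 0.0198) and Lrig1, which promotes turnover of receptor tyrosine kinases, lower (-1.36, adjusted p = 0.0211), and both calls were lost without replicate 1 or 3 of either group (adjusted p from 0.0528 to 0.088). Of 20 other Erk-responsive transcription factors 4 were called higher in d3con, led by Ets1 (4.08), Fosl2 (2.67) and Jun (2.20), and 3 lower, Fosl1 (-2.31), Ier2 (-1.79) and Egr1 (-1.70). Likewise Ets1 (3.26), Fosl2 (2.09) and Jun (1.26) were called higher in d3ko over d0ko and Fosl1 (-2.32) and Egr1 (-2.23) lower, with the call of Fosl1 lost under the replicate block. Between d3ko and d3con 0 of the 20 were called, where DESeq2 also called 0 and 1 had an unadjusted p under 0.05. In d3con over d0con the calls of Dusp1, Dusp5, Spred3, Egr1, Dusp4, Fosl1 and Fosl2 were lost without d0con replicate 1 (adjusted p from 0.0585 to 0.129), those of Dusp4, Fosl1 and Fosl2 without d0con replicate 2 (from 0.0615 to 0.133), and that of Fosl1 also without d3con replicate 2 (0.0518) or 3 (0.0941). In d3ko over d0ko the calls of Lrig1, Rasa3, Ets1, Fosl1, Fosl2 and Jun were lost without either d0ko replicate (from 0.058 to 0.26) and that of Egr1 without replicate 1 (0.0771). Of these, Rasa3, Fosl2 and Jun were also lost without d3ko replicate 1 (from 0.0518 to 0.0874), Rasa3, Fosl1 and Fosl2 without d3ko replicate 2 (from 0.0725 to 0.09) and Fosl1 without d3ko replicate 3 (0.094).

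Of 15 other receptor tyrosine kinases tested 9 were called higher in d3con (20.6% of all genes were), led by the Vegf receptor genes Flt1 (log2 fold change 8.36) and Kdr (4.79) and by Pdgfra (6.43), and 1 lower, Epha2 (-1.59). The median log2 fold change over the list was 1.77, against 0.07 over all genes tested. Flt1, Kdr and Pdgfra had 14 to 15, 12 to 14 and 9 to 16 counts at d0con, below the 1 CPM of the filter. Of d0con and d3con, only d3con took them past the filter, so they could hardly be called lower. They enter the 9 and the median. In d3ko over d0ko 7 were called higher, against 11.6% of all genes, led by Kdr (6.23), Pdgfra (4.96) and Flt1 (4.39). Against 5.72% of all genes 2 were called lower, Ntrk2 (-2.28) and Erbb3 (-1.24), and the median of the list was 0.39. d3ko stood below d3con in 4, where 3.51% of all genes were called lower, among them Ntrk2 (-5.02, adjusted p = 0.00726), Flt1 (-3.58, adjusted p = 0.0142) and Kit (-1.24, adjusted p = 0.0242). Ntrk2 had 45 to 232 counts in d3con and 2 to 6 in d3ko. Only d3con took it past the filter, so it could hardly be called higher in d3ko, and it enters the 4. The calls of Flt1 and Kit there were lost without d3con replicate 1 or 3 or d3ko replicate 1 (adjusted p from 0.0502 to 0.0927). In d3ko over d0ko the call of Pdgfra was lost without either d0ko replicate (0.107 and 0.0571), that of Flt1 without d0ko replicate 1 (0.0807), that of Erbb3 without d0ko replicate 2 (0.0699), and that of Ntrk2, with 2 to 6 counts in d3ko, without either d0ko replicate or d3ko replicate 1 or 2 (from 0.0559 to 0.131). Kdr is also among the mesoderm markers and Pdgfra among the extraembryonic endoderm markers, whose sums at day 3 were 28.7 to 351 TPM and 181 to 593 TPM.

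In the doxycycline line 6.96% of all genes were called higher and 1.47% lower. Of 5 ligand genes tested 3 were called lower in d2-FVFp, Fgf15 (log2 fold change -2.77), Fgf17 (-2.41) and Fgf5 (-2.21), and 0 of 16 cascade genes were called, by DESeq2 too, where 6 had an unadjusted p under 0.05. Of 20 other Erk-responsive factors 6 were called higher, led by Ets1 (2.34) and the immediate early genes Fos (2.19) and Jun (2.18), and 1 lower, Etv1 (-1.29), the third Pea3 factor. The feedback inhibitors Errfi1 (1.43), which binds Egfr, and Lrig1 (1.33) were called higher, as were the partners Gpc3 (1.69), Sdc4 (1.57) and Klb, the coreceptor of Fgf15 and Fgf21, which had 1 count in each d2-FVFn library and 23 to 42 counts in d2-FVFp. Of 13 other receptor tyrosine kinases 5 were called higher, led by Flt1 (4.99), Pdgfra (3.55) and Egfr (2.85). In d2-FVFn Flt1 had 10 to 30 counts and Pdgfra 5 to 8. Klb and Pdgfra passed the filter only through d2-FVFp, so they could hardly be called lower. The calls of Ets1, Errfi1, Gpc3 and Pdgfra were lost without d2-FVFn replicate 1 (adjusted p from 0.0553 to 0.0659), those of Fgf5, Lrig1 and Pdgfra without d2-FVFn replicate 2 (from 0.0633 to 0.144) and that of Fgf5 without d2-FVFp replicate 1 (0.0611). Beside them, Etv4 and Etv5 were at 80.4 to 103 TPM and at 196 to 298 TPM in d2-FVFp and at 66.4 to 88.0 TPM and at 255 to 289 TPM in d2-FVFn.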

How the data were processed

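RNA was sequenced from sorted cells with a low-input SMART-Seq v4 kit, which does not mark strand. The authors aligned reads to mm10 with STAR and quantified them with RSEM (versions not given in the sources used here), and deposited expected counts and TPM for each gene and library. Expected counts were rounded and tested with edgeR 4.0.16 in R 4.3.3 (TMM, quasi-likelihood F test), after keeping genes with at least 1 CPM in 2 libraries. The 10 day 0 and day 3 libraries were fitted together (13899 genes) and the 4 doxycycline libraries apart (12943 genes). A gene was called at a Benjamini-Hochberg adjusted p under 0.05 over all genes tested and a change over 2-fold. TPM, as deposited, describe levels and are scaled by transcript length.

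The 10 genes and all other lists were chosen with earlier results of these data known. All 10 were named, with the 2 genes most like each and up to 3 called genes a direction of each other list by size of change, and Fgf18, Klb and Fgf8 were described by levels because of counts near 0. Same-numbered day 0 and day 3 libraries of a genotype came from the same clone, per the naming of the tables, so the numbers pair them, although their deviations from the group means correlated by only -0.04 to 0.06. The labels do not say whether replicates were separate cultures, so p-values measure the spread between these libraries.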

Additional observations from a re-analysis of the deposited data

How the results depend on the processing

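Members called in d3con over d0con (4) fell to 2 when tested against a 2-fold change and ranged from 3 to 5 with 1 library left out. Members called in d3ko over d0ko (2) became 3 with DESeq2 or the clone block, 1 with a mean count of at least 50, with only the 2 groups compared, without the 75-base libraries or with clones summed, and 0 against a 2-fold change, and ranged from 0 to 2 with 1 library left out. Members called in d3ko over d3con (2) became 3 with DESeq2, 0 against a 2-fold change, with only the 2 groups, without the 75-base libraries and with clones summed, and 4 without replicate 2 of both genotypes, an alternative chosen after seeing the data, and ranged from 0 to 3 with 1 library left out, with 0 without replicate 1 or 3 of either group. The interaction (0 called) gave 1 with DESeq2 and 0 to 2 with 1 library left out. The doxycycline comparison (0 called) gave 2 with no condition on size and 0 to 1 with 1 library left out. The cause of these changes was not tested, except that a test against a 2-fold change asks for larger changes by construction.

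With the replicate number as a block, d3con over d0con had 4 and d3ko over d0ko 2 members called, Fgfr2 lost and Etv4 gained. That block gives same-numbered libraries of both genotypes a shared effect, although their clones differ. With the clone as a block d3ko over d0ko had 3 members called, with Fgfr2 kept (adjusted p = 0.0182) and Etv4 gained. In d3ko over d3con same-numbered libraries came from different clones, and replicate 1 of both groups shares the 75-base reads. In the doxycycline line the labels do not say whether same-numbered libraries came from the same culture. In d3ko over d3con and in the doxycycline line the replicate block gave 2 (Etv5 2.21, Spry2 1.32) and 0 members called. Same-numbered libraries had deviations correlated by -0.01 to 0.54 and by 0.28 there. The replicate block changed no other call of a member.

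No called member reversed. Among values not called, the replicate block reversed Fgfr2 in d3con over d0con (0.11), Spry2 in d3ko over d0ko (0.021) and the interactions of Fgfr4 (-0.063) and Spry1 (-0.008), the last also with a mean count of at least 50 (-0.002), with clones summed (-0.067) and with the clone block (-0.10). With 1 library left out, log2 fold changes that crossed 0 ranged in d3con over d0con from -0.81 to 0.33 for Fgfr2, from -0.28 to 0.67 for Fgfr3 and from -0.002 to 0.49 for Spry1. They ranged in d3ko over d0ko from -1.51 to 0.025 for Fgfr4, from -0.34 to 0.039 for Spry2 and from -0.072 to 0.48 for Spry1, and in d3ko over d3con from -0.26 to 1.20 for Fgfr4 and from -0.33 to 0.38 for Etv4. In d0ko over d0con they ranged from -0.58 to 0.75 for Fgfr2, from -0.76 to 0.18 for Fgfr3, from -0.019 to 0.82 for Fgfr4 and from -0.10 to 0.043 for Etv5. The interactions ranged from -0.72 to 0.82 for Fgfr4, from -0.31 to 0.28 for Spry1 and from -0.25 to 0.004 for Fgfr1, and in the doxycycline line Fgfr3 ranged from -0.03 to 0.26 and Etv5 from -0.50 to 0.10.

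Of the alternatives for called members 99 kept the call and 31 lost it. Fgfr2 in d3ko over d0ko lost its call in 10 of 16, and Spry2 and Etv5 in d3ko over d3con in 8 of 17 each. Every other call was lost in 0 to 2 of 16. Groups of 2 or 3 libraries, 2 clones a genotype and the spread of Fgfr3 and Fgfr4, with down to 17.4 counts a library, limit what these comparisons detect.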
